A study of Mus musculus with 21 samples.

Results

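Days 5 and 10 of a single culture condition were compared across genes: mouse CD8 T cells kept in 50 IU/mL interleukin-2 (IL-2), sampled on day 5 and on day 10 after activation. They are 2 of the 21 libraries of the study and were taken by their titles, with every cell that passed a filter on depth and mitochondrial share used: 3250 of 3251 cells on day 5 and all 4937 on day 10, or 8187 of 106456 cells in all. The cells were naive CD8 T cells of OT1 mice, whose transgenic T cell receptor recognises an ovalbumin peptide. They were stimulated on day 0 with bead-bound anti-CD3 and anti-CD28 and then grown with cytokine, and the condition has a day 3 library too. Naive cells of day 0 and 5 other cultures, IL-2 at 5 IU/mL and IL-15 and the mutant IL-2v at 5 and 50 IU/mL, are used beside it. Each condition was 1 library, so no value below has a replicate, no test was possible, and a difference describes these libraries and not the conditions. The treatment labels of this culture read interleukin-3 where the titles and the study's design read IL-2, and the treatment labels of the 50 IU/mL IL-15 libraries used beside it read interleukin-16. The titles were followed for both. The labels' extraction text speaks of sorted tumour-infiltrating cells while the growth text speaks of culture. Neither says whether the days came from the same mice or the same dish, so culture below means a cytokine and dose, not a dish followed over time.

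IL-2 binds a receptor of 3 chains, encoded by Il2ra, Il2rb and Il2rg, and acts on T cells mainly through JAK kinases and the transcription factor STAT5. In CD8 T cells strong and lasting IL-2 signals are known to favour effector differentiation, in which cells fill cytotoxic granules with granzymes and perforin and give up the genes of naive and memory cells. Cytotoxic granules hold perforin, which opens the target membrane, and granzymes, serine proteases that enter through it.

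Each value is a count of unique molecular identifiers (UMIs, tags that mark single captured RNA molecules), summed over the cells of a library and scaled to the total of the library as CPM. Day 5 summed to 10589950 UMIs and day 10 to 27274115, with medians of 3016 and 5065 UMIs and of 1271 and 1667 genes per cell. With each cell thinned to 2000 UMIs the order was the other way, with medians of 961 and 869 genes. The day 5 library stood apart from the other 20: it was the shallowest per cell and in all, it had the lowest median mitochondrial share (2.65%, against 3.86% on day 10), and its mt-Nd6 level of 253.6 CPM was the highest of the 21 (49.4 on day 10). Gm42418, a gene model that overlaps ribosomal RNA, went from 11446 to 2740 CPM, a log2 difference of -2.06, and differed by between -2.95 and -1.89 in the other 5 cultures. The part of depth and RNA quality in the differences below was not tested. The libraries shared 2 cell barcodes. With each cell thinned to 2000 UMIs, Cd3d had a UMI in 84.4% of day 5 cells and 88.8% of day 10 cells, Cd8a in 25.9% and 21.4% and Cd8b1 in 43.4% and 28.3%. Without thinning the shares were 93.0% and 98.0% for Cd3d, 37.0% and 40.7% for Cd8a and 56.7% and 54.5% for Cd8b1. The 7 T cell markers differed by less than 2-fold in either direction, while Ms4a1 and Lyz2, markers of B and myeloid cells, had no UMI in either library. Cells with 2 or more B, myeloid or erythroid markers, or with Cd4 and neither CD8 gene, made up 2.06% of day 5 cells and 10.4% of day 10 cells without thinning, the latter the highest share of the 21 libraries, and without them 349 genes were higher and 1093 lower. Of the B, myeloid and erythroid markers only Cst3 (114.1 and 107.3 CPM) and Fcer1g (6.52 and 113.2) passed the filter. How much of the share came from Fcer1g and from depth was not tested. Klrb1c, an NK marker, was in 0.455% and 3.60% of the thinned cells, and Trdc, of gamma-delta T cells, in 13.7% and 12.2%. Trdc was also in 25.9% of the thinned naive cells, and the other 5 gamma-delta markers did not pass the filter. On days 5 and 10 these 5 were at 5.85 and 16.5 CPM (Tcrg-C1), 6.80 and 4.66 (Tcrg-C2), 2.83 and 2.27 (Tcrg-C4), 1.04 and 1.87 (Trdv4) and 0.283 and 0.0733 (Sox13). The Trdc share therefore cannot be read as a share of gamma-delta T cells. Whether some cells were gamma-delta T cells was not tested.

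Of 5847 genes with at least 20 CPM in either library, 350 were at least 2-fold higher on day 10 (5.99%) and 1135 at least 2-fold lower (19.4%), together 25.4%. A call here is a difference of at least 1 in log2(CPM + 1), and the added 1 shrinks the change of genes with few counts. The median difference over all tested genes was -0.25, and 37.4% of them lay above 0. Of the 350 higher genes 197 passed the filter through day 10 alone, and of the 1135 lower genes 635 through day 5 alone, so these had to differ. Among the 4303 genes past 20 CPM on both days 3.56% were higher and 11.6% lower. Every gene named below as higher with under 20 CPM on day 5, or as lower with under 20 CPM on day 10, likewise had to differ. For all of these the filter fixed the direction of the difference but not its size. The balance of calls depended on the scaling: with TMM factors, which set the bulk of genes level and moved the median by 0.33, 769 genes were higher (12.6%) and 665 lower (10.9%), so higher genes made up 53.6% of the calls in place of 23.6%. Of the genes named below as lower, Lef1, Foxo1, Ltb, Irf4, Lag3, Tnfrsf1b, Slc16a3, Bbc3 and Pmaip1 were no longer called with TMM scaling, and Serpinb9, Ccl5, Tnfrsf9, Cish and Cdkn1a were then higher by 2-fold or more. Differences are read below against the -0.25 of all genes. The gene lists were chosen with earlier results of these data known. A list share set beside that of all genes is therefore a description and no support for a change of the list. The day 10 library had the highest level of all 21 libraries for 202 of the 350 higher genes and the lowest for 626 of the 1135 lower genes. The day 5 library in turn was the lowest of the 21 for 106 of the 350 and the highest for 340 of the 1135. Genes picked for a difference between these 2 libraries tend to stand at the ends of such a ranking. These counts, and those of the same kind for list members below, are thus no support for a change.

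**Figure D1:**
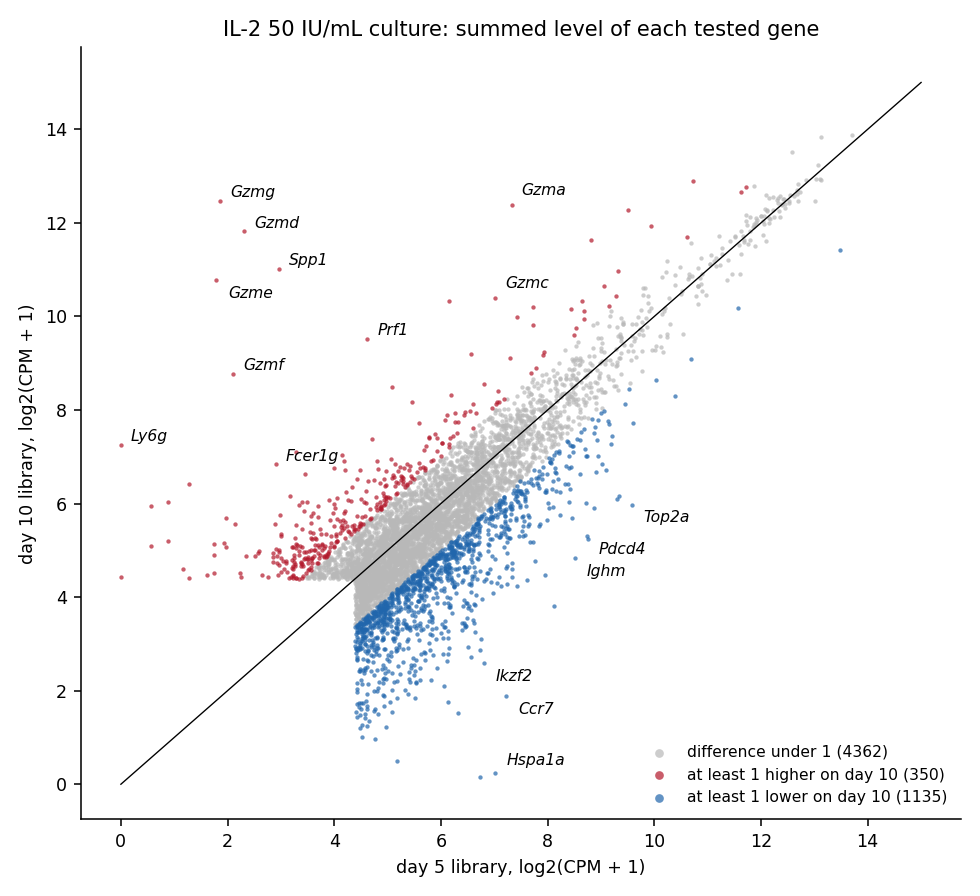
Summed level of each of the 5847 tested genes in the day 5 library (horizontal axis) and the day 10 library (vertical axis), both as log2(CPM + 1), with the line of equal level. Red points (350) were at least 1 higher and blue points (1135) at least 1 lower on day 10. Gzmg, Gzmd, Gzme and Spp1 stand at the upper left, with 5667, 3602, 1752 and 2064 CPM on day 10 from 2.64, 3.97, 2.46 and 6.80 on day 5, and Hspa1a stands at the bottom.

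Granzyme RNA rose from 0.199% of all UMIs on day 5 to 2.58% on day 10, counting Gzma to Gzmg, and in no other of the 21 libraries did it exceed 0.542%. Gzmc, Gzmd, Gzme, Gzmf and Gzmg, a group of granzymes encoded side by side on chromosome 14, together went from 0.0141% to 1.28%. Of the 24 genes fixed as granule and cytotoxicity genes, 19 passed the filter, 9 rose, none fell and the median difference was 0.94. Of all tested genes 5.99% were higher. Gzmd, Gzme, Gzmf and Gzmg passed the filter through day 10 alone and so had to differ, and the count and median are no support for a change of the list. Of the 15 members past 20 CPM on both days 5 rose (33.3%), beside 3.56% of all such genes.

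Gzmg was not seen on days 0 and 3, lay at 2.64 CPM on day 5 (95% Poisson interval 1.76 to 3.82) and reached 5667 on day 10 (5639 to 5695). That is a 2143-fold difference with a counting interval of 1483 to 3226. Gzmd went from 0 on day 0 and 1.15 on day 3 to 3.97 on day 5 and 3602 on day 10. Gzme went through 0, 0.303 and 2.46 to 1752 CPM, and Gzmf through 0, 1.09 and 3.31 to 438. These 4 genes were at the edge of detection in this culture up to day 5 and among its abundant messages on day 10. Gzmc started earlier, with 0.379, 4.48, 129 and 1353 CPM on days 0, 3, 5 and 10, a 10.5-fold last step (9.94 to 11.1). All intervals cover counting error only and not the spread between cultures.

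The RefSeq promoters of the 5 late granzymes (the 250 bases before the start of the gene, build GRCm38.p6, minus strand) are printed because these genes rose together and lie next to each other. Capitals mark TGTGGT, the core motif of RUNX factors, read on either strand (ACCACA on the other).
Gzmc, chr14:56234658-56234907: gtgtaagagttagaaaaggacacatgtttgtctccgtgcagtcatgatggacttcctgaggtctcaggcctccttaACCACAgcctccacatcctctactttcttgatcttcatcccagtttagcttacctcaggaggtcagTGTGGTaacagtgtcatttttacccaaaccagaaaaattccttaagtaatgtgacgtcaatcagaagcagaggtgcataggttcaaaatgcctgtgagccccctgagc
Gzmd, chr14:56132594-56132843: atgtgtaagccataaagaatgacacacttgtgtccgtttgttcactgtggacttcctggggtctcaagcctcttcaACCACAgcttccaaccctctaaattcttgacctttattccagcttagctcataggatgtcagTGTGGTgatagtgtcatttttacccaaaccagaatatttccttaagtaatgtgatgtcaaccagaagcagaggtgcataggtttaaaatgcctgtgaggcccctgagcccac
Gzme, chr14:56120626-56120875: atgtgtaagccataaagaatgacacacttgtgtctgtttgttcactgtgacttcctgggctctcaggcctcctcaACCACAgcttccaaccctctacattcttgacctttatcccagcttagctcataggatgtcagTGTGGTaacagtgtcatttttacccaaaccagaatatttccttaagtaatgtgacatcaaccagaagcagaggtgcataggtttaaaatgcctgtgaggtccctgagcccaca
Gzmf, chr14:56211408-56211657: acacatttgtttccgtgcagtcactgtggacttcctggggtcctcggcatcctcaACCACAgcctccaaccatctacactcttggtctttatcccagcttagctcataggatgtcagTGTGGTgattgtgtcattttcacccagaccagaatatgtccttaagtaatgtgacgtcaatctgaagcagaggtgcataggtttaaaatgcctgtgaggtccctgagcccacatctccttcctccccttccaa
Gzmg, chr14:56159580-56159829: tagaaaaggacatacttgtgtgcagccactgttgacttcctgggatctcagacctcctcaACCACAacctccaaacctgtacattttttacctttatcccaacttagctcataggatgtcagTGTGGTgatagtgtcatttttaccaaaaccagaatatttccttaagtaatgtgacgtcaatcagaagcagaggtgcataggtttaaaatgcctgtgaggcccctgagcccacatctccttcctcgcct
Each of the 5 holds 2 matches, ACCACA and, nearer the gene, TGTGGT, which lie 62 bases apart in Gzmd, Gzme, Gzmf and Gzmg and 66 apart in Gzmc. At least 2 matches were present in 1.26% of the 27025 promoters and in 0.809% of the 4696 promoters of tested genes. At least 1 was present in 14.2% and 11.03%. The sequences are copies of each other, with 94.8% identity between Gzmd and Gzme and 68.4% between Gzmc and Gzmf, so the 5 promoters are not independent. The promoter of Gzmb, a neighbour on chromosome 14 that was already high on day 3, was 43.6% to 47.6% identical to them. TTCNNNGAA (the STAT motif), TGANTCA (AP-1) and GGTGTGA (T-box), searched on both strands, had no match in the 5 windows. A match is a description of the sequence and no evidence of binding.

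Gzmb encodes the main granzyme of activated CD8 T cells. It was at 6.50, 1873 and 1689 CPM on days 0, 3 and 5 and at 7618 on day 10, 4.51-fold more than on day 5 (4.44 to 4.58). Gzma, a tryptase of the granules, went from 32.5, 11.9 and 160.2 CPM to 5352, a 33.4-fold last step (31.9 to 35.1). Prf1, which encodes perforin, was below its naive level of 39.96 CPM on day 3 (15.6) and day 5 (23.6) and reached 732 on day 10, 31.0-fold more than on day 5 (27.4 to 35.3). Nkg7, a granule membrane protein, rose from 530.1 to 1609 CPM. Genes of the machinery that moves and fuses granules did not reach 2-fold: Rab27a was at 64.9 and 50.2 CPM, Unc13d at 32.1 and 46.7, Stxbp2 at 69.6 and 72.2 and Lamp1 at 68.1 and 56.1. Srgn, the granule proteoglycan, was at 512.8 and 740.2. Fasl, the other cytotoxic route of T cells, was at 25.8 and 23.4 CPM.

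Sums over a library cannot tell more cells with a message from more message per cell, so cells were also compared after thinning each to 2000 UMIs, which left 2857 cells on day 5 and 4693 on day 10 and left out 393 and 244. At this depth Gzmd had a UMI in 0.385% of cells on day 5 (exact 95% interval 0.192% to 0.688%) and in 51.0% on day 10 (49.6% to 52.5%). Gzmg went from 0.175% to 48.4%, Gzme from 0.385% to 44.7%, Gzmc from 11.6% to 36.4% and Gzmf from 0.245% to 9.06%. Gzma went from 11.2% to 77.0% and Prf1 from 3.54% to 49.2%, while Gzmb was in 88.9% of cells on day 5 and 98.8% on day 10. At least 1 of the 5 late granzymes was seen in 0.866% of cells on day 3, 12.4% on day 5 and 72.1% on day 10, and all 5 in 4.90% on day 10. How far free RNA adds to these shares was not measured, since no cells of the library are known to lack granzymes. Tyrobp was in 0.170% of day 10 cells and Trdc in 12.2%. Cd4, Lyz2 and Csf1r were in 0 of 4693, which allows a share of cells with a UMI, not of cells expressing the gene, of up to 0.0639% by the floor of 3 counts and up to 0.0786% by the exact interval used for the other shares.

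Among the cells with a Gzmg UMI on day 10 the mean was 19.3 of the 2000 UMIs, with a maximum of 246 in a cell. The tenth of day 10 cells with the most Gzmg held 69.4% of its UMIs, against 26.5% for Gzmb and 42.2% for Gzma, so Gzmg was spread less evenly over cells than these. The other late granzymes were more frequent in cells with Gzmd. Of the 2394 such cells 77.7% had Gzme (76.0% to 79.3%), 74.5% Gzmg, 51.5% Gzmc and 15.2% Gzmf, and of the 2299 other cells 10.3%, 21.3%, 20.7% and 2.65%. Prf1 was in 69.1% and 28.5%. Exactly 1 of the 5 late granzymes was seen in 20.9% of day 10 cells, and none in 27.9%. These shares come from cells of 1 library and share its depth.

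**Figure D2:**
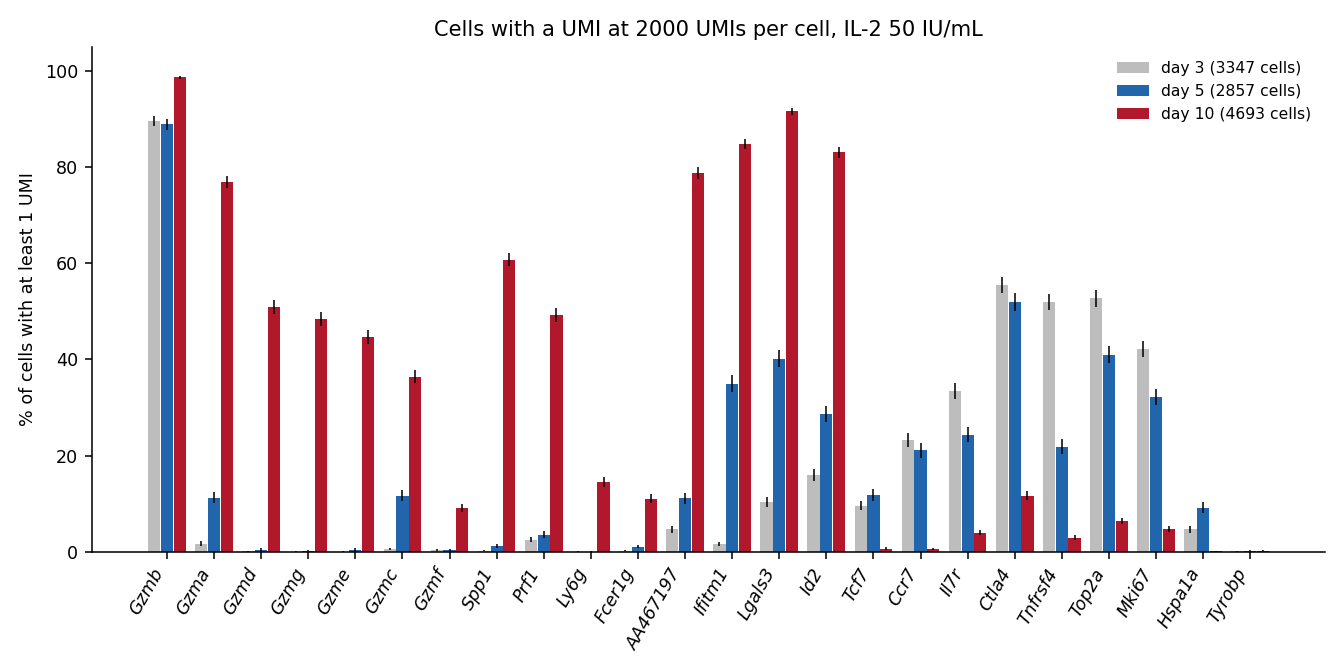
Share of cells with at least 1 UMI of each gene on days 3, 5 and 10 of the 50 IU/mL IL-2 culture, after thinning every cell to 2000 UMIs. Bars are shares of 3347, 2857 and 4693 cells and lines are exact 95% intervals for counting error. Gzmg goes from 0.175% on day 5 to 48.4% on day 10 and Spp1 from 1.09% to 60.8%, while Ccr7 goes from 21.1% to 0.490% and Ctla4 from 52.0% to 11.6%.

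Spp1, which encodes the secreted phosphoprotein osteopontin, had 0.325, 0.909, 6.80 and 2064 CPM on days 0, 3, 5 and 10, a 304-fold last step (241 to 388). It was in 1.09% of day 5 cells and 60.8% of day 10 cells. Of the 25 cytokine and chemokine genes fixed, 8 passed the filter, 4 rose and 1 fell, but Spp1, Il10 and Il24 passed through day 10 alone and had to be higher, which leaves 1 higher and 1 lower of the 5 past it on both days, beside 3.56% and 11.6% of all such genes. Il10 rose from 4.72 to 28.6 CPM, Il24 from 8.78 to 32.3 and Tgfb1 from 131.2 to 288.8, and Ltb, lymphotoxin beta, fell from 470.5 to 199.0. Tnf was at 22.3 and 24.0 CPM, Ccl5 at 57.9 and 105.9, and Ifng was in 0.140% of cells on day 5 and 0.874% on day 10, without restimulation in the labels. The day 10 levels of Spp1, Il10, Il24 and Tgfb1 were the highest of the 21 libraries. Spp1 is also a macrophage gene, and Csf1r and Lyz2 had no UMI in the day 10 library. Of the 2854 day 10 cells with Spp1 88.1% had Cd3d against 90.0% of the rest and 19.0% had Cd8a (17.6% to 20.5%) against 24.96%.

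Ly6g, best known as the surface marker of mouse neutrophils, had no UMI on days 0, 3 and 5 and 4149 on day 10 (152.1 CPM). Against the floor of 3 UMIs for the day 5 library the level was at least 537-fold higher, and the exact interval used for the other folds has a lower limit of 436.5. The next highest library was 50 IU/mL IL-2v on day 10 with 1.10 CPM. Ly6g was in 14.5% of day 10 cells, of which 93.7% also had Cd3d (88.0% of the other cells). It was about as frequent with and without Gzmd: it was in 14.2% of cells with Gzmd and 14.9% of those without.

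Fcer1g, a signalling adaptor of Fc and natural killer (NK) receptors, went from 1.95, 0.848 and 6.52 CPM to 113.2, a 17.4-fold last step (13.7 to 22.4), and from 0.980% to 11.04% of cells. Of 6 NK markers 3 passed the filter and were higher: Eomes (30.4 to 82.9 CPM), and Fcer1g and Klrb1c (2.08 to 21.3), which passed through day 10 alone and so had to be higher. Of all tested genes 5.99% were higher. The summed level of the 6 NK markers went from 39.6 to 218.2 CPM. The defining NK gene Ncr1 and Klra8 had no UMI on either day, and the adaptor Tyrobp was at 0.567 and 0.697 CPM. Of the 518 day 10 cells with Fcer1g, 87.3% had Cd3d, against 89.0% of the 4175 without. Cd3e was in 40.7% (36.5% to 45.1%) against 50.0% (48.5% to 51.6%) and Cd8b1 in 23.9% against 28.9%. Fcer1g was in 17.0% of cells with Gzmd and 4.78% of the rest. Of 9 myeloid markers, Fcer1g and Cst3 passed the filter, with Cst3 at 114.1 and 107.3 CPM, and Lyz2, Csf1r, Adgre1 and Mpeg1 at 0 on both days. No B cell or erythroid marker passed the filter on either day.

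**Figure D3:**
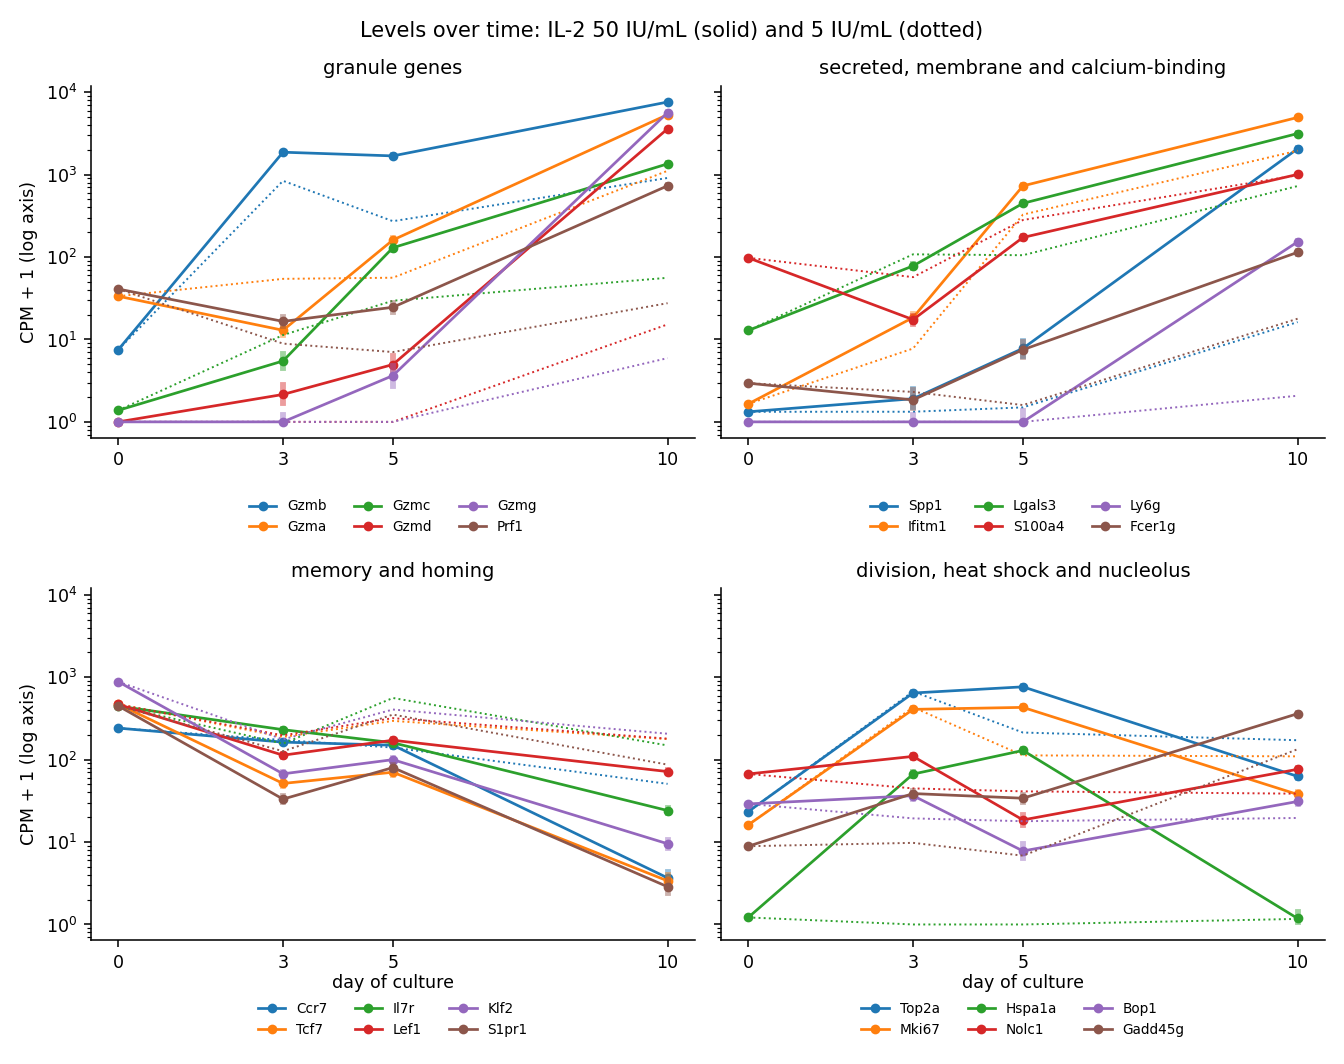
CPM + 1 on a log axis for 24 genes on days 0, 3, 5 and 10, in 50 IU/mL IL-2 (points and solid lines, with thick bars for the 95% Poisson interval of days 3, 5 and 10) and in 5 IU/mL IL-2 (dotted). Gzmd, Gzmg, Spp1 and Ly6g leave the floor between days 5 and 10, Gzmc rises earlier, Ccr7 and Il7r drop between days 5 and 10, and Nolc1 and Bop1 dip on day 5 and return.

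Genes of naive and memory cells were among the lower genes. Of 19 fixed stemness and memory genes, 14 passed the filter, 12 were lower, none higher and the median difference was -2.35. Of the 12, 7 passed the filter through day 5 alone and had to be lower, so the count and median are no support by themselves. Of the 6 past 20 CPM on both days 5 fell (Il7r, Lef1, Satb1, Bach2, Foxo1), beside 11.6% of all such genes. Ccr7, the chemokine receptor for entry into lymph nodes, was at 240.6, 162.3 and 148.9 CPM on days 0, 3 and 5 and at 2.68 on day 10, 55.6-fold less than on day 5 (44.0 to 71.4), the lowest level of the 21 libraries. S1pr1, the receptor for leaving lymph nodes, went from 79.1 to 1.87 CPM, and Klf2, which drives S1pr1, from 99.1 to 8.54. Tcf7, the transcription factor TCF-1 of naive and stem-like T cells, had 471.4, 50.5, 69.4 and 2.38 CPM on days 0, 3, 5 and 10. It had dropped by day 3, and fell a further 29.1-fold (22.6 to 38.1) between days 5 and 10. Il7r, the IL-7 receptor of long-lived cells, went from 159.5 to 23.1 and Slamf6 from 29.6 to 2.16. Lef1 fell less, from 171.2 to 70.7, and Bcl2 (449.2 and 333.2) and Myb (23.8 and 13.3) did not reach 2-fold. By cells, Ccr7 went from 21.1% to 0.490%, Tcf7 from 11.7% to 0.639%, Il7r from 24.3% to 3.90% and Lef1 from 27.6% to 13.7%. The day 10 level was the lowest of the 21 libraries for 10 of the 14 tested genes.

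Of the 18 transcription factors tested 6 rose, all among the 13 past 20 CPM on both days (46.2%, beside 3.56% of all such genes). Another 6 were lower, of which Stat4 was past it on both days (7.69% of the 13, beside 11.6% of all such genes). The other 5 passed the filter through day 5 alone and had to be lower. Those that rose were Zbtb32 (42.9 to 289.1 CPM), Id2 (210.2 to 1177), Maf (20.4 to 91.6), Irf8 (95.5 to 278.9), Eomes and Batf3. Id2, an inhibitor of E proteins that supports effector CD8 T cells, was in 28.6% of cells on day 5 and 83.2% on day 10. Those that were lower were Ikzf2 (111.4 to 4.99 CPM), Gata3 (66.0 to 10.3), Rora (24.6 to 4.33), Stat4 (199.8 to 51.5), Runx1 (22.8 to 6.20) and Irf4 (42.8 to 16.9). Runx3, the RUNX factor of CD8 T cells, was at 440.5 and 382.8 CPM, and Prdm1, which encodes BLIMP-1, at 38.7 and 26.6. Pdcd4, a translation inhibitor high in resting T cells, went from 427.1 to 38.5 CPM, 11.1-fold less. Lmna, the nuclear lamina protein, rose from 16.6 to 131.0, and Ighm, an immunoglobulin heavy chain gene not usually thought of as a T cell gene, went from 363.3 to 27.4 CPM and from 48.7% to 5.39% of cells. Of the B cell markers Cd79b was at 7.18 and 2.49 CPM, Ighd at 3.02 and 0.0733 and Cd79a at 0.472 and 0.147.

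Of the inhibitory receptors, 14 were fixed and 6 passed the filter, with 2 higher and 2 lower. Of the 5 past it on both days 1 was higher (Entpd1) and 2 lower (Ctla4, Lag3), beside 3.56% and 11.6% of all such genes, while Havcr2 passed through day 10 alone and had to be higher. Havcr2, which encodes TIM-3, rose from 9.92 to 98.3 CPM, 9.92-fold (8.16 to 12.2), and from 1.79% to 15.2% of cells, the highest level of the 21 libraries. Entpd1, the ectonucleotidase CD39, rose from 31.3 to 69.7. Ctla4 fell from 464.8 to 58.7 CPM and from 52.0% to 11.6% of cells, and Lag3 from 72.0 to 30.1 CPM. Of the 9 costimulatory receptors tested, Tnfrsf4 (OX40) fell from 172.0 to 17.7 CPM, Cd226 from 55.8 to 10.96, Cd28 from 272.8 to 87.9 and Tnfrsf1b from 39.8 to 17.3, and Tnfrsf8 (CD30) rose from 9.73 to 29.99. Among these Cd28 was past the filter on both days, while the other 4 passed through 1 day alone and had to differ. Tnfrsf9 (4-1BB) was at 582.4 and 1112 CPM, just short of 2-fold. Cxcr4, a chemokine receptor, went from 35.2 to 0.403 CPM and Itga4, an integrin chain for entry into inflamed tissue, from 23.5 to 1.36, while Ccr2 (64.1 to 155.9) and Ltb4r1 (111.5 to 375.2), receptors for inflammatory attractants, rose.

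The IL-2 receptor itself changed by less than 2-fold. Il2ra was at 868.6, 330.3 and 299.9 CPM on days 3, 5 and 10, Il2rb at 437.8, 374.4 and 536.1, and Il2rg at 194.5 and 163.0 on days 5 and 10. Il2ra was in 42.2% of day 5 cells and 38.9% of day 10 cells. Of the 14 tested STAT5 targets, 3 were higher (Gadd45g, Bcl2l1, and Pim3, which passed the filter through day 10 alone), 2 fell (Myc, Pim2) and the median difference was 0.08. Of the 13 past the filter on both days 2 rose and 2 fell, 15.4% each, beside 3.56% and 11.6% of all such genes, so the lower share was near the background. With TMM scaling 6 rose and the median was 0.42. Gadd45g, a stress-response gene, went from 33.1 to 360.6 CPM, 10.9-fold (9.81 to 12.2), and Myc from 150.6 to 24.4, 6.18-fold less (5.64 to 6.77). Cish, a direct STAT5 target, was at 97.4 and 162.9 CPM. Among 21 tested cytokine receptor and JAK-STAT genes, 1 rose (Il12rb1, 30.2 to 102.7) and 6 fell, among them Stat5b (59.96 to 13.7) and Ifngr1 (483.8 to 163.0). Of the 19 past the filter on both days the 1 that rose is 5.26% and the 5 that fell are 26.3%, beside 3.56% and 11.6% of all such genes. With TMM scaling 2 rose and 4 fell.

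Most tested genes of cell division were lower on day 10. Of the G2 and mitosis genes 39 of 41 tested fell, of the S phase genes 22 of 25 and of the clustered histones 16 of 17, with none rising and medians of -2.90, -2.11 and -2.21. Of these, 30, 18 and 11 passed the filter through day 5 alone and had to be lower, so the counts and medians are no support by themselves. Of the members past 20 CPM on both days, 9 of 11, 4 of 5 and 5 of 6 fell, beside 11.6% of all genes past 20 CPM on both days, among them Top2a, Mki67, Birc5, Pcna and Mcm6. Top2a, the topoisomerase of dividing cells, was at 22.4, 643.3, 764.9 and 61.7 CPM on days 0, 3, 5 and 10, a 12.4-fold last drop (11.8 to 13.1). Mki67, the proliferation marker Ki-67, was at 15.2, 407.1, 430.2 and 36.8, and Nusap1, a spindle protein, went from 276.1 to 13.1 CPM between days 5 and 10. Cells with a UMI of Mki67 or Top2a made up 2.04% of naive cells, 63.5% on day 3, 47.6% on day 5 (45.7% to 49.4%) and 8.35% on day 10 (7.58% to 9.18%), all at 2000 UMIs per cell. Tubb4b (125.1 and 116.6 CPM), Psrc1 and Dut (158.5 and 161.9) did not follow. Dnmt1, Ezh2, Suz12 and 4 further genes of 10 DNA methylation and Polycomb genes also fell, with Ezh2 going from 188.7 to 39.1 CPM. Of the 7, 1 passed the filter through day 5 alone and had to be lower, and 6 of the 9 past it on both days fell, beside 11.6% of all such genes. With TMM scaling 6 were lower, and among non-cycling cells 5.

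Among non-cycling cells, here those with no UMI of Mki67 and none of Top2a, 410 genes were higher on day 10 (7.30%) and 935 lower (16.6%), of which 322 and 840 were also called over all cells. These cells were picked without thinning, 1612 of 3250 on day 5 and 4277 of 4937 on day 10. Day 5 was the shallower library, so more of its cycling cells may have gone unseen. Nusap1 and Kif11 still differed by -3.24 and -2.79 in this class, so non-cycling names the rule and not the state of each cell. In these cells, over the members tested in all cells, the list medians were -2.57 for stemness genes (-2.35 over all cells), 0.71 for granule genes (0.94), 2.61 for IFITM genes (2.64), -1.09 for S phase (-2.11) and -1.75 for G2 and mitosis (-2.90). The genes called lower in these cells numbered 7 of the G2 and mitosis list (39 over all cells), 7 of the S phase list (22) and 5 of the clustered histones (16). Mki67 and Top2a were at 0 by the choice of cells. A call here again needed 20 CPM within these cells, so members under it were not counted, whatever their difference. The medians above, and -1.41 for the clustered histones (-2.21 over all cells), include such members. The smaller counts therefore do not show that most division genes no longer differed. UMIs of late granzymes were also counted in day 10 cells with a cycling UMI, at a lower level than in the rest. The 392 such cells had 1569 CPM of Gzmg (1482 to 1659) and 3250 of Gzma in the thinned counts, and the 4301 other cells 4969 and 4916. How much of the level in the cycling cells was free RNA was not measured. On day 5 the 1359 cycling cells had 0.368 CPM of Gzmg and 122.1 of Gzma. The Ccr7 level was low in both classes on day 10, with 3.83 and 2.33 CPM.

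CCAAT, the motif of the factor NF-Y, and TTTGAA, the cell cycle gene homology region, were counted in promoters of the division genes, since these fell together. Of the 35 G2 and mitosis genes tested with a RefSeq promoter, 28 (80.0%) held CCAAT within 250 bases, against 34.5% of all promoters and 36.8% of those of tested genes, and 12 (34.3%) held TTTGAA against 16.3% and 10.8%. Of 22 S phase promoters 17 (77.3%) held CCAAT and 1 TTTGAA. Both strands were read. Top2a, with 6 and 2 matches, and Mki67, with 3 and 2, are shown with the matches in capitals.
Top2a, chr11:99024190-99024439, minus strand: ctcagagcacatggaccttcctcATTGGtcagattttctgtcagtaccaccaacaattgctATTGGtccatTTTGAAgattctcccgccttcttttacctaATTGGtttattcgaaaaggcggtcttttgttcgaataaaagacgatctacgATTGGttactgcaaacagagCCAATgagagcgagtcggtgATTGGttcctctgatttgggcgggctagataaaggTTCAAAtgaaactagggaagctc
Mki67, chr7:135716380-135716629, minus strand: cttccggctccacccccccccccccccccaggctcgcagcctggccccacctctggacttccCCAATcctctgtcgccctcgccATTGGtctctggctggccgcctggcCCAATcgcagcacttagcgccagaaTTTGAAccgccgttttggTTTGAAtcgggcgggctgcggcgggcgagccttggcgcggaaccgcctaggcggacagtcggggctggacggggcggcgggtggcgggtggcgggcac
Nusap1, the division gene with the largest drop, held neither motif in its window, so the count describes the group and not each member.

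Of 16 tested p53 targets and CDK inhibitors 4 were higher, 4 lower and 8 neither, beside 5.99% and 19.4% of all tested genes. All 4 higher genes passed the filter through day 10 alone and had to be higher, as Cdkn2c through day 5 alone had to be lower. Of the 8 past it on both days none was higher and 3 were lower (37.5%), beside 3.56% and 11.6% of all such genes. Cdkn1a (p21), at 181.4 and 361.1 CPM, did not reach 2-fold. Cdkn2a, which encodes p16 and ARF, rose from 17.4 to 104.7 CPM, 6.03-fold (5.19 to 7.03), and from 3.01% to 16.0% of cells. Cdkn2b, its neighbour encoding p15, rose from 9.16 to 61.7. Cdkn1b (p27) fell from 203.0 to 35.2 CPM and Cdkn2c from 21.3 to 6.82. In the BCL2 family the death-promoting genes Bcl2l11, which encodes BIM (229.1 to 44.6 CPM), Bbc3 (119.2 to 47.2) and Pmaip1 (20.6 to 7.26) fell and Bax rose from 123.0 to 261.7. The survival gene Bcl2l1, counted above with the STAT5 targets, rose from 28.4 to 58.1, and Bcl2a1b from 18.9 to 65.4.

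The hypoxia response list, genes that low oxygen induces through HIF factors, had 10 of 16 tested genes lower and none higher, with a median of -1.29. Kdm3a and Mxi1 passed the filter through day 5 alone and had to be lower, and 8 of the 14 past it on both days fell, beside 11.6% of all genes past 20 CPM on both days. With TMM scaling 8 of the 16 fell. Pdk1, which encodes a kinase that inhibits pyruvate dehydrogenase, went from 185.7 to 45.1 CPM, Bnip3 from 567.7 to 208.3 and Egln1 from 189.2 to 65.5. For all 10 genes the day 5 level was the highest of the 21 libraries, and their day 10 level was below that of day 3. Of 18 glycolysis genes 1 rose and 3 fell, with a median of -0.58, beside 5.99% and 19.4% of all tested genes. Of the 17 past 20 CPM on both days 5.88% rose and 11.8% fell, near the 3.56% and 11.6% of all such genes, so the counts are no result about glycolysis. Pfkfb3 went from 46.8 to 7.44 CPM, Slc16a3 from 144.6 to 69.1 and Eno1 from 409.2 to 988.2. None of the 37 nuclear genes of complex I changed by 2-fold (median 0.27), and 2 of the 39 of complexes II to V rose (Uqcrq, Atp5g1), 5.13% beside 3.56% of all genes past 20 CPM on both days. Of 21 cholesterol synthesis genes 2 rose, among them Hsd17b7 (7.55 to 25.7 CPM, past the filter through day 10 alone), with a median of 0.51. Of the 17 past 20 CPM on both days 1 rose (5.88%), near the 3.56% of all such genes, so the count is no result about the list. With TMM scaling, which called 12.6% of all tested genes higher and 10.9% lower, 8 cholesterol genes, 6 genes of complexes II to V and 2 of complex I (median 0.60) rose and 1 glycolysis gene fell. Among non-cycling cells 6 cholesterol genes rose, beside 7.30% of all genes tested there. Of 19 amino acid and ATF4 genes 4 rose and 1 fell, and the transporters Slc7a5 (76.2 to 243.8 CPM) and Slc1a5 (60.1 to 169.0) were among the 4. Of the 18 past 20 CPM on both days 3 rose, beside 3.56% of all such genes. With TMM scaling 7 rose and none fell, and among non-cycling cells 7 rose and 1 fell.

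Of 30 tested ribosome biogenesis genes, which build ribosomes in the nucleolus, 10 were higher than on day 5, none was lower and 20 did not reach 2-fold, with a median of 0.62. The summed level of the list went from 4652 to 4385 CPM. Of the 10, 7 passed the filter through day 10 alone, so these had to be higher. Gnl3, Nop56 and Rrp1b were 3 of the 19 past it on both days (15.8%), where 3.56% of all genes were higher. With TMM scaling 15 of the 30 were higher (median 0.95) and among non-cycling cells 11 (0.81). Nolc1, a nucleolar scaffold, was at 66.1, 108.6, 17.6 and 75.5 CPM on days 0, 3, 5 and 10, and Bop1, a factor of large subunit assembly, at 28.0, 35.6, 6.80 and 30.1. For 9 of the 10 the day 5 library was the lowest of the 21, and 8 of the 10 stayed below their day 3 level on day 10. The most abundant members, Npm1 (2638 and 1753 CPM) and Ncl (929.5 and 873.5), did not reach 2-fold. None of 81 cytosolic ribosomal protein genes changed by 2-fold, and their median was 0.05, or -0.01 among non-cycling cells. With TMM scaling the median was 0.39 and 3 of the 81 were higher. Of 16 unfolded protein response genes 4 rose, among them the chaperones Hspa5 (219.4 to 478.8 CPM) and Calr, with a median of 0.35. Of all tested genes 5.99% were higher. Of the 13 past 20 CPM on both days 3 rose (23.1%), beside 3.56% of all such genes. With TMM scaling 7 of the 16 rose, beside 12.6% of all tested genes, and among non-cycling cells 7 rose, beside 7.30%.

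The IFITM genes encode small membrane proteins that block virus entry. All 3 of the 6 that passed the filter rose: Ifitm1 had 0.650, 17.4, 730.1 and 4950.0 CPM on days 0, 3, 5 and 10, a 6.78-fold last step (6.63 to 6.94), Ifitm3 went from 93.6 to 586.7 and Ifitm2 from 641.1 to 1992. All 3 were past 20 CPM on both days, where 3.56% of all genes were higher. Ifitm2 shares sequence with an overlapping read-through model, so its count is uncertain. Ifitm1 was in 35.0% of cells on day 5 and 84.8% on day 10. Of 22 tested interferon-stimulated genes 7 were higher and 6 lower, with a median of 0.00. Of these, 3 and 1 passed the filter through 1 day alone and had to differ, and of the 17 past it on both days 4 rose and 5 fell, beside 3.56% and 11.6% of all such genes. The balance moved to 7 and 3 with TMM scaling (median 0.33) and to 5 and 7 among non-cycling cells (-0.22). Isg15 went from 8.03 to 70.4 CPM and Isg20 from 25.02 to 165.2, but Ifi203 from 68.8 to 19.5 and Irf1 from 93.0 to 34.8. Of 16 tested S100, galectin and annexin genes 6 rose, none fell and 10 did not reach 2-fold. The 6 were among 15 past 20 CPM on both days, beside 3.56% of all such genes. With TMM scaling 8 rose, and among non-cycling cells 6 rose and 1 fell. Lgals3, the secreted lectin galectin-3, went from 448.2 to 3156 CPM and S100a6 from 977.1 to 3925, and S100a4, whose transcript overlaps a read-through model and is uncertain, from 172.0 to 1007. Of 4 serpins tested 3 were higher, of which Serpinb6a was past the filter on both days and the other 2, among them Serpina3g (11.99 to 51.3), had to be higher. Serpinb6a was thus 1 of the 2 serpins past it on both days, beside 3.56% of all such genes. The granzyme B inhibitor Serpinb9 was at 77.8 and 150.0 CPM. Ctsd, the lysosomal protease cathepsin D, rose from 210.8 to 900.0.

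**Figure D4:**
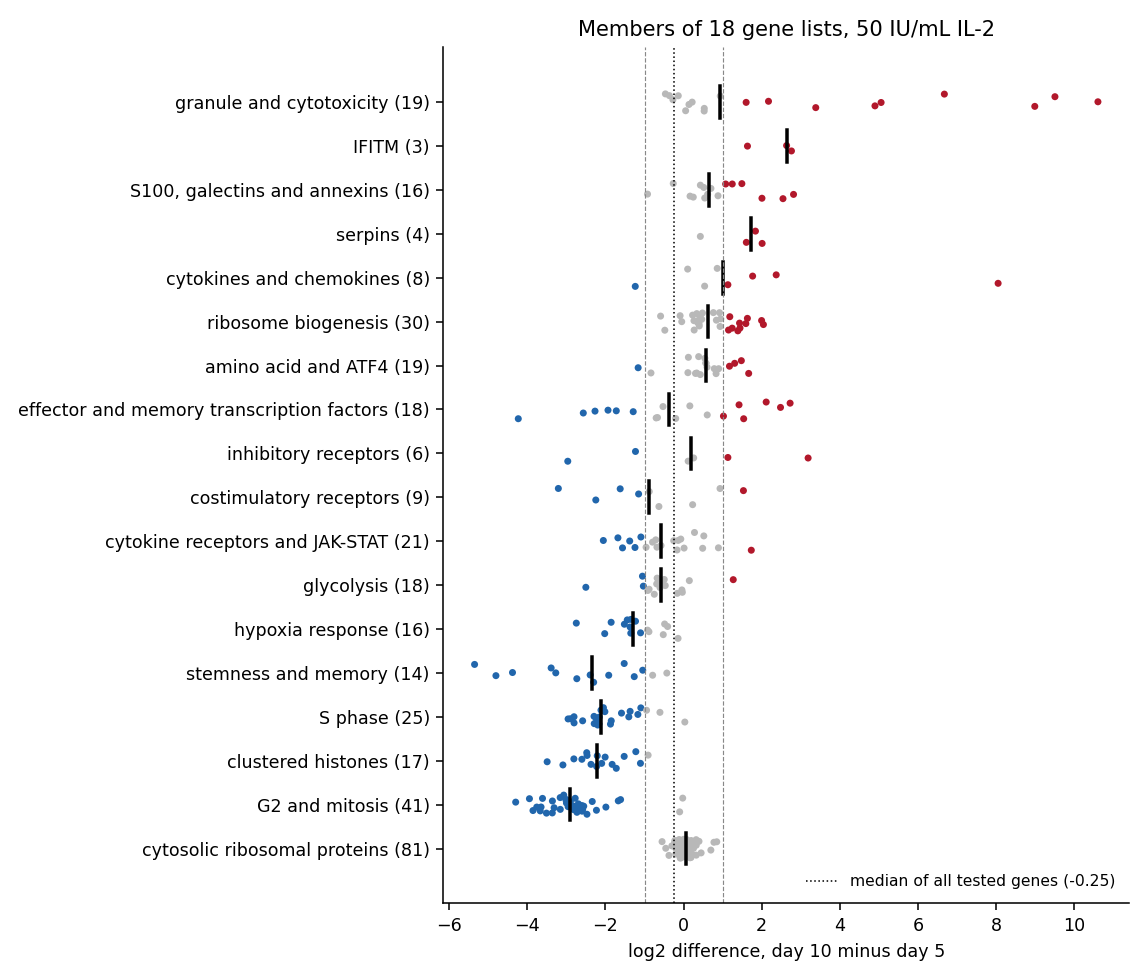
Log2 difference (day 10 minus day 5) of each tested member of 18 gene lists, 1 point a gene, with the number of tested members in brackets. Red and blue points are past 1 in size, black bars are list medians and the dotted line is the median of all tested genes (-0.25). Division and stemness genes lie to the left almost whole, while the granule list is split between 9 genes far to the right and 10 within 2-fold.

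Hspa1a and Hspa1b, adjacent genes for the inducible HSP70 chaperone, had the lowest differences. Hspa1a was at 0.217, 65.8 and 128.4 CPM on days 0, 3 and 5 and at 0.183 on day 10, and Hspa1b at 1.46, 52.6, 104.7 and 0.110. Leaving out days 3 and 5 of this culture, the highest levels over the remaining 19 libraries were 1.28 CPM for Hspa1a and 1.46 for Hspa1b. The day 10 sums rest on 5 and 3 UMIs, and reads of the pair cannot be told apart in full, since 24.1% of the Hspa1b 3′ sequence is shared with Hspa1a. On day 5 Hspa1a was in 9.14% of cells, and of these 261 cells 64.8% also had Hspa1b, against 3.04% of the others. Of the 16 heat shock genes tested, Dnajb1 also fell (70.1 to 23.9 CPM) and none rose. The 3 lower genes are a share near the 19.4% of all tested genes, and of the 14 past 20 CPM on both days 7.14% fell, beside 11.6% of all such genes, so the count is no result about the list. With TMM scaling 1 rose. The median was -0.13, which turned positive with TMM (0.20) and median-of-ratios scaling. The Hspa1a promoter is shown with its match to GAANNTTC, a pair of the units that make up heat shock elements, in capitals. This match was present in 6.78% of all promoters, and the longer element with one more GAA unit had no match in the window. A CCAAT match (ATTGG) is also in capitals.
Hspa1a, chr17:34972157-34972406, minus strand: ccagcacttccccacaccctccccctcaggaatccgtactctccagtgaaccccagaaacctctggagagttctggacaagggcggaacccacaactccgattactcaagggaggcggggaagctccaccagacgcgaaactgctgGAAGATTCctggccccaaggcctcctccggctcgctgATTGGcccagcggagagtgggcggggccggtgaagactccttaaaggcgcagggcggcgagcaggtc

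The same step was set beside the 5 other cultures, which share no library with this one. At 5 IU/mL IL-2, 261 of 5652 genes were higher on day 10 (4.62%) and 114 lower (2.02%), together 6.63%, with a median of 0.26. With 50 IU/mL IL-2v 97 were higher (1.58%) and 714 lower (11.6%), together 13.2%. At 5 IU/mL IL-2v 115 were higher (1.98%) and 244 lower (4.21%), together 6.19%. With IL-15 at 50 IU/mL 45 were higher (0.823%) and 243 lower (4.44%), together 5.27%, and at 5 IU/mL 72 (1.32%) and 189 (3.46%), together 4.78%. The 50 IU/mL IL-2 culture thus had the most calls in either direction among the 6. It also did with TMM scaling (769 and 665, against at most 237 and 304 in the others) and with median-of-ratios scaling (690 and 665, against at most 245 and 304). Of its 350 higher genes 64 were also higher in 50 IU/mL IL-2v (18.3% of these and 66.0% of the 97 there) and 71 in 5 IU/mL IL-2 (20.3% and 27.2%). Of its 1135 lower genes 472 were also lower in 50 IU/mL IL-2v (41.6% and 66.1%) and 68 in 5 IU/mL IL-2 (5.99% and 59.6%). With IL-15 the shared higher genes numbered 5 at 50 IU/mL and 2 at 5 IU/mL. Another 13 (3.71%) and 14 (4.0%) of the 350 were at least 2-fold lower there, near the shares of all tested genes that were lower (4.44% and 3.46%). The shared lower genes numbered 126 and 98, 51.9% of the lower genes of each. No gene was higher in all 6 cultures, 13 were lower in all 6, and 219 of the higher genes (62.6%) and 557 of the lower genes (49.1%) were not called in the same direction in any of the other 5, where between 0.823% and 4.62% of tested genes were higher and between 2.02% and 11.6% lower.

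Late granzymes on day 10 followed an order over the cultures in which neighbours lay far beyond counting error at the top. Gzmd was at 3602 CPM in 50 IU/mL IL-2, 424.4 in 50 IU/mL IL-2v, 14.2 in 5 IU/mL IL-2 and 0.123 in 5 IU/mL IL-2v, and had no UMI with IL-15 at either dose. Spp1 had 2064, 501.5, 15.3 and 1.10 in the same order, and 0.0628 and 0 with IL-15. Prf1 stood at 732 CPM in 50 IU/mL IL-2 and at 76.5 in the next culture, 50 IU/mL IL-2v, and lay between 9.74 and 26.6 in the others. Ccr7 ran the other way, from 2.68 and 15.7 CPM with 50 IU/mL IL-2 and IL-2v to 149.9 and 302 with IL-15 at 50 and 5 IU/mL. Division genes followed another order. The log2 difference of Top2a between days 10 and 5 was -3.61 here, -4.43 in 5 IU/mL IL-15, -2.43 in 50 IU/mL IL-2v, -1.74 in 50 IU/mL IL-15, -0.53 in 5 IU/mL IL-2v and -0.31 in 5 IU/mL IL-2. For Mki67 it was -3.51 here and -5.82, -2.38, -2.52, -0.50 and -0.04 in the same cultures. The drop of both genes was thus larger in 5 IU/mL IL-15 than here, as it was for Nusap1 (-5.80 against -4.30). Whether these steps differ between cultures was not tested, since each rests on 2 libraries.

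**Figure D5:**
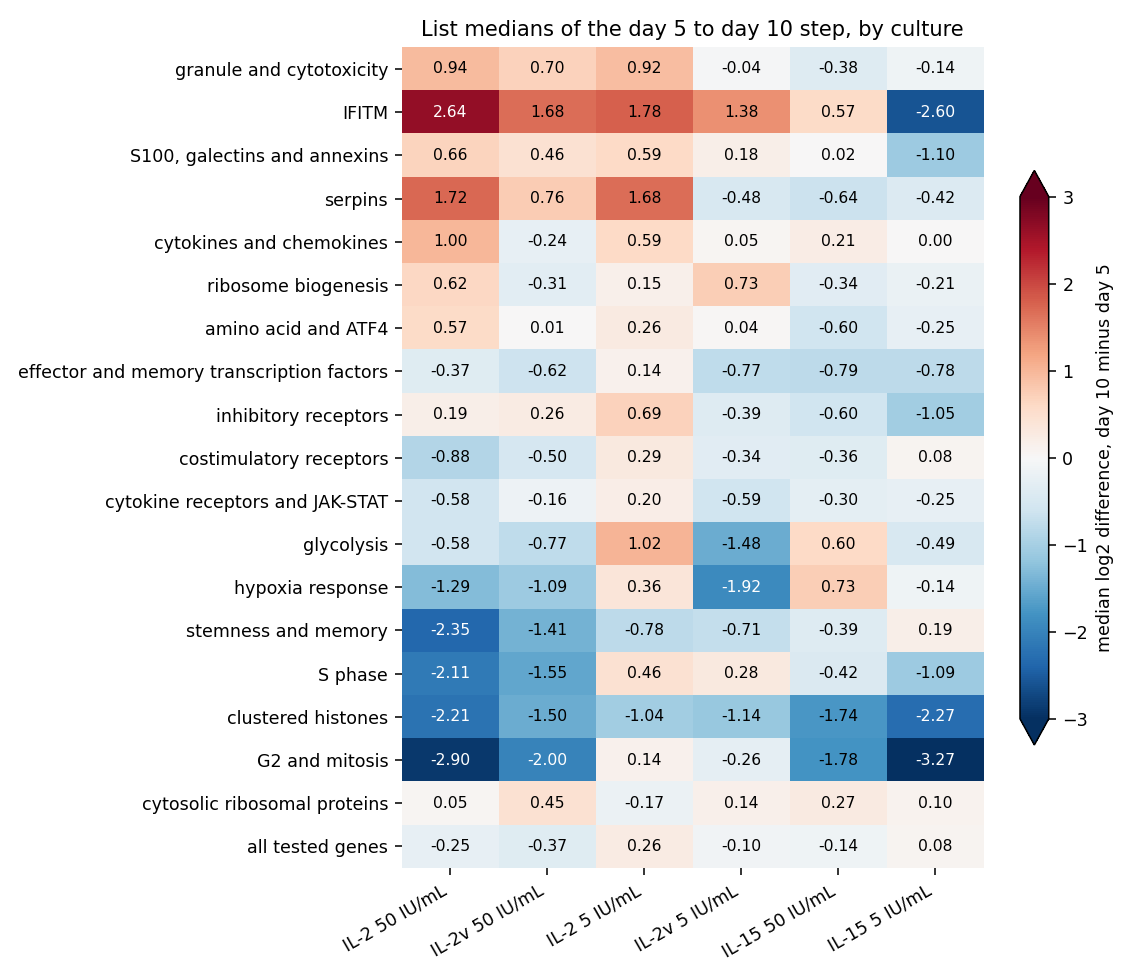
Median log2 difference between days 10 and 5 for 18 gene lists (rows) in the 6 cultures (columns), over the members tested in the 50 IU/mL IL-2 culture, with all genes tested in each culture in the last row. Red is higher and blue lower on day 10. Stemness genes have medians of -2.35 and -1.41 with 50 IU/mL IL-2 and IL-2v and between -0.78 and 0.19 in the other 4 cultures. G2 and mitosis genes have -2.90 in 50 IU/mL IL-2, -3.27 in 5 IU/mL IL-15, -1.998 in 50 IU/mL IL-2v, -1.78 in 50 IU/mL IL-15, -0.26 in 5 IU/mL IL-2v and 0.14 in 5 IU/mL IL-2, and clustered histones -2.27 in 5 IU/mL IL-15 against -2.21 in 50 IU/mL IL-2. The members were filtered on the 50 IU/mL IL-2 libraries, which fixes part of that column.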

How the data were processed

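Single-cell RNA was measured in 21 libraries. The deposited files hold whole UMI counts per gene and cell, and these counts were used as deposited. The submitters' processing notes name Cell Ranger, Seurat 3.0.2 and 4.0.1 and the build mm10, with no role given. Cells under 1000 UMIs, under 500 genes or over 10% mitochondrial were dropped, which removed 1 cell on day 5. No doublet caller was run, and leaving out cells above 2 times the library's median UMIs was tried instead. Counts were summed over cells and scaled to CPM. A gene was tested with at least 20 CPM in either library and called at a difference of 1 in log2(CPM + 1). Intervals are exact 95% intervals (Poisson for CPM, binomial for folds, Clopper-Pearson for shares) and cover counting error only. The genes named were the top 12 and bottom 12 differences at 100 CPM or more in the higher library, clone-named models left out, and members of the 46 gene lists. Ly6g, Fcer1g and Spp1 came in by this rule. The lists and members were chosen with earlier results of these data known. Promoters came from RefSeq (GRCm38.p6) and gene positions from GENCODE (GRCm38). The scripts were tested on simulated data. Tools were Python 3.11.15, numpy 2.4.6, pandas 2.3.3, scipy 1.17.1 and matplotlib 3.10.9, and for the scaling alternatives R 4.3.3 with edgeR 4.0.16 (TMM) and DESeq2 1.42.0 (median of ratios). Each group was 1 library, so no test was run.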

Additional observations from a re-analysis of the deposited data

Results flagged for a closer look

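Batf3, a transcription factor of the AP-1 family, was higher on day 10 in the 50 IU/mL IL-2 culture by 1.02 on the log2 scale (22.2 to 46.0 CPM) and lower in each of the other 5 cultures, by between -2.30 and -0.35. Its day 3 level in this culture was 128.1 CPM. The difference between the cultures was not tested, since each step rests on 2 libraries.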

How the results depend on the processing

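The number of genes past 2-fold (350 higher, 1135 lower) was recomputed under 12 alternatives. With TMM scaling there were 769 higher and 665 lower, with median-of-ratios scaling 690 and 665, with a pseudocount of 10 there were 214 and 725, and without the expression filter 738 and 1979. Under the other 8 both counts stayed within 1.5 times, including thinning each cell to 2000 UMIs before summing, an alternative chosen after seeing the data (388 and 996). The scalings of the other 5 cultures were also added after seeing the data. None of 286 recomputed values of the 24 genes with the largest differences changed sign, and none of the 272 called list members did under any alternative. Both sets were picked for large differences in these same 2 libraries, so they could hardly change sign and this is no support. Of all 817 tested list members 162 changed sign under at least 1, 122 of them with TMM and 112 with median-of-ratios scaling, among them Il2ra, Il2rg, Cd8a and Runx3, which were not called. Of 552 recomputed list medians 13 changed sign, none of them from the 8 lists with a median of at least 1 in size, which likewise could hardly do so. The share of cells with a cycling UMI on days 5 and 10 was 35.6% and 5.17% at 1000 UMIs per cell, 50.4% and 13.4% without thinning, and 74.6% and 25.2% when 3 or more UMIs of the cell cycle lists were asked for. This last measure also counted 40.6% of naive cells, more than on day 10, whereas the Mki67 or Top2a share of naive cells (2.04%) was below that of day 10 (8.35%). No replicate could be left out. No paired analysis was possible because each group is a single library.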

Other observations

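AA467197, a gene named outside the rule after its values were seen, went from 0.379 and 24.6 CPM on days 0 and 3 to 70.0 on day 5 and 1283 on day 10, an 18.3-fold last step (17.0 to 19.7), and from 11.1% to 78.9% of cells. On day 10 it was at 799 CPM in 5 IU/mL IL-2v, 508 in 50 IU/mL IL-2v, 314 in 50 IU/mL IL-15, 266 in 5 IU/mL IL-2 and 1.97 in 5 IU/mL IL-15, so unlike the late granzymes it was abundant in 5 of the 6 cultures.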
